A study of Drosophila melanogaster with 6 samples.

Results

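Cytochrome P450 enzymes form one of the large gene families of *Drosophila melanogaster*, and 91 genes of the family were read here in ovarian somatic cells depleted of *ovo*. They were all genes of the count table whose symbol is Cyp followed by a family number and a letter, plus the ecdysteroid genes *phm*, *dib*, *sad*, *shd*, *spo* and *spok*, out of 17807 genes in all. Of the 91 members, 89 are annotated as protein coding and 2, *Cyp6a15Psi* and *Cyp6t2Psi*, as pseudogenes. A member was called expressed when 3 or more of the 6 libraries held 10 or more normalized counts of it, and 37 members (40.7%) met this, against 44.3% of all genes. The RNA came from Δ*l(3)mbt* OSCs, an ovarian somatic cell line that carries a knockout of *l(3)mbt* in every library of both groups. The cells were nucleofected with duplexes of 21 nt that target *ovo* (*ovo* siRNA) or, as the control, the luciferase gene *renilla*, which the fly lacks (*renilla* siRNA), and RNA was taken after 48 h. Each group had 3 libraries, numbered as replicates 1, 2 and 3, and the comparison asks which genes of the family change when *ovo* is lowered. Per the study's methods the replicates of a group were distinct samples.

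A P450 enzyme binds a heme group and uses it, with electrons passed on from a partner protein, to insert an oxygen atom into a substrate. In insects the family makes and inactivates steroid hormones, works on fatty acids and cuticle lipids, and oxidizes plant toxins and insecticides. Family numbers group into clans: the CYP2 and mitochondrial clans hold the genes of ecdysteroid synthesis, the CYP3 clan holds most genes linked to detoxification, and the CYP4 clan includes fatty acid hydroxylases. In the ovary, follicle cells make ecdysteroids, and *spo* is known as one of the ecdysteroid genes of that layer. The heme is held by a cysteine in a loop near the end of the protein. A signature of 10 residues around it (F-x-x-G-x-x-x-C-x-G, x being any residue) was present in 78 of the 86 members whose coding sequence could be read in frame, and in 30 of 35 such members among those expressed. The proteins had 433 to 589 residues, with the cysteine 52 to 87 residues before the end. The expressed members without that exact signature were *Cyp9f3*, *Cyp6d4*, *Cyp6u1*, *Cyp301a1* and *Cyp6d2*.

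The coding bases of this loop are shown for 6 expressed members with unlike behavior in the comparison below: *Cyp6d5*, which rose, *Cyp305a1* and *Cyp310a1*, which fell, and *spo*, *Cyp18a1* and *Cyp28d2*, which did not pass the test. Each line has 30 bases of the coding strand, 5′ to 3′, read from the RefSeq dm6 genome, with the codon of the heme-binding cysteine in capitals.
Cyp6d5: ttcggcgagggacccaggatgTGTatcggc
Cyp305a1: ttcggcatgggcagacgccgtTGTctgggc
Cyp310a1: tttggcattgggggatcgcagTGTgtggga
spo: tttagcatcgggaagcggactTGCatcggc
Cyp18a1: ttcggagtgggcaggcggatgTGCctgggc
Cyp28d2: tttggcgatggacctcgtcacTGTccagga
The loop of *Cyp6d5* lies at chr3R:14031097-14031264 on the plus strand and that of *Cyp28d2* at chr2L:5208966-5209057 on the plus strand, and that of *Cyp310a1* lies at chr2L:18651360-18651453 on the minus strand; an intron interrupts each of these 3. The loops of *Cyp305a1* (chr3L:19810711-19810740), *spo* (chr3L:5590758-5590787) and *Cyp18a1* (chrX:18689359-18689388) lie on the minus strand in a single exon each. The cysteine is residue 453 in *Cyp6d5*, 450 in *Cyp305a1*, 428 in *Cyp310a1*, 485 in *spo*, 466 in *Cyp18a1* and 446 in *Cyp28d2*.

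The shallowest library, *renilla* siRNA replicate 3, had 2759594 counted reads and the deepest, *ovo* siRNA replicate 2, had 21481506. A count of 0 still allows up to 3 reads, or between 1.39 normalized counts for the deepest and 13.1 for the shallowest. The shallowest library stood apart on the second principal component of all genes (30.8% of the variance), while the first (59.4%) separated the groups. The target *ovo* fell 1.66-fold by the limma test used throughout (log2 fold change −0.73 ± 0.13, adjusted p = 0.00862). Leaving out *ovo* siRNA replicate 2 gave an adjusted p of 0.0601 for it, and taking out a trend in transcript GC content and length gave one of 0.276 and a log2 fold change of −0.26. The knockout gene *l(3)mbt* still gave 1668 to 3399 normalized counts, and counts per gene do not tell which part of it is missing. All 5 follicle cell markers were expressed, and of these *mirr* and *tj* fell and *fs(1)Yb* rose. The summed level of the 5 ran from 26801 to 29852 normalized counts after *ovo* siRNA and from 25795 to 33604 after *renilla* siRNA. None of 4 hemocyte markers was expressed (summed levels of 2.79 to 10.2 after *ovo* siRNA and 3.82 to 12.8 after *renilla* siRNA). Nor was any of 5 fat body markers (0.464 to 0.725 and 0 to 6.68), and *Lsp1alpha*, *Lsp2*, *Fbp1* and *Fbp2* were at 0 in all 6 libraries. Of 4 midgut markers *LManII* alone was expressed, at a level of 474 to 845, and *alphaTry* was at 0 throughout. The Malpighian tubule marker *Uro* was not expressed either (0.725 to 3.72 after *ovo* siRNA and 7.64 to 9.11 after *renilla* siRNA). Its value in *renilla* siRNA replicate 3 (8.76) lay below the 13.1 that a count of 0 allows there. Neither its change nor its part in any result was tested.

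The expressed members covered a wide range of levels. Mean normalized counts over the 6 libraries were above 1000 for 3 members (*Cyp4p2*, *Cyp28d2* and *Cyp4p1*), between 100 and 1000 for 11 and below 100 for 23. Per kilobase of exon, the control libraries had 2901 ± 144 normalized counts of *Cyp4p2* (SD, n = 3), 938 ± 18.7 of *Cyp4p1*, 904 ± 75.7 of *Cyp28d2* and 236 ± 13.1 of *Cyp4e2*. *Cyp9c1*, *Cyp6a13*, *Cyp18a1* and *Cyp6v1* followed, between 168 and 187, and their ranges of mean ± SD overlapped. Those of *Cyp4p1* and *Cyp28d2* in the controls also overlapped. At the lower end *Cyp6a8*, *Cyp4ac3*, *Cyp12a5* and *Cyp6g1* had 5.24 to 7.33 normalized counts per kilobase. *Cyp6g1*, known for its part in DDT resistance when overexpressed, was the member closest to the limit. It had 10 or more normalized counts in exactly 3 libraries (9.22, 9.75 and 13.8 normalized counts after *ovo* siRNA and 12.8, 6.68 and 13.1 after *renilla* siRNA). Among these, *renilla* siRNA replicate 3 held 3 reads of it, no more than a count of 0 allows, and 3 of *Cyp6a8*. Just outside the limit, *Cyp4ae1* and *Cyp6a16* reached 10 in 2 libraries each. Of the 54 members below the limit, 9 had no read in any library, the median was 6.5 reads over all 6 libraries and 48 had fewer than 25. Among them were *Cyp4g1*, the hydrocarbon-forming enzyme of oenocytes, with 5 reads, and *Cyp6a2*, which has been linked to insecticide resistance, with 21.

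**Figure D1:**
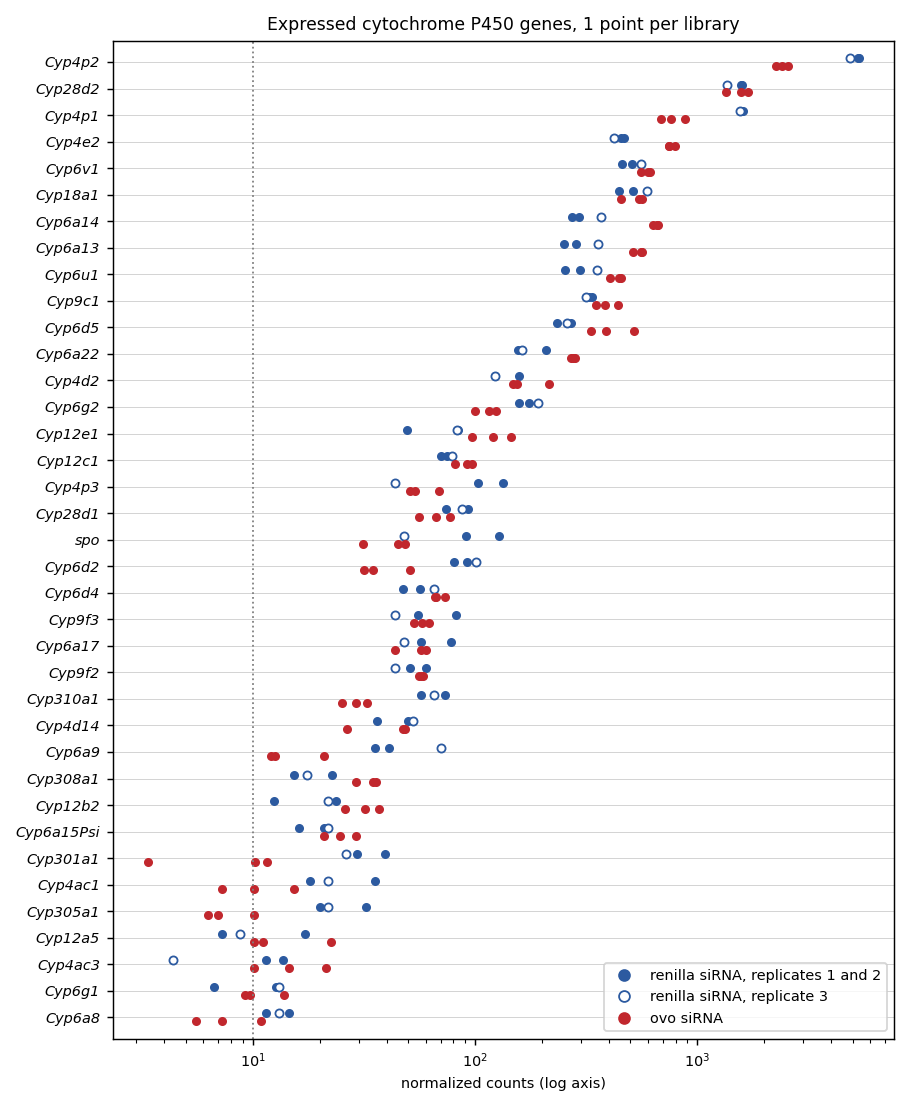
Normalized counts (log axis) of the 37 expressed cytochrome P450 genes, ordered by mean level, with 1 point per library; blue points are renilla siRNA libraries, the open one being replicate 3, red points are ovo siRNA libraries, and the dotted line marks 10 normalized counts. The red points of Cyp4p2 and Cyp4p1 lie below all blue points, those of Cyp4e2, Cyp6a14 and Cyp6a13 lie above, and those of Cyp28d2 and Cyp18a1 lie among them.

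After *ovo* siRNA 6 of the 37 expressed members rose (16.2%), 8 fell (21.6%) and 23 did not pass the test (limma on log2 (normalized count + 1), Benjamini-Hochberg adjusted p below 0.05 over 7893 genes). Over all genes tested 11.8% rose and 14.1% fell. The 3 libraries of the groups did not overlap for 12 members that were higher after *ovo* siRNA and for 10 that were lower, compared with 23.6% and 21.7% of all genes. Both the members and all genes had a median of 0.04 on the log2 scale, and the range was −1.92 (*Cyp301a1*) to 1.07 (*Cyp6a14*). By clan, 5 rises and 4 falls were among 21 expressed members of the CYP3 clan, 1 rise and 2 falls among 8 of the CYP4 clan, 1 fall among 3 of the CYP2 clan and 1 fall among 5 of the mitochondrial clan. The clans also differed in how many members were expressed, with 21 of 40 in the CYP3 clan, 8 of 32 in the CYP4 clan, 3 of 7 in the CYP2 clan and 5 of 12 in the mitochondrial clan. Without *renilla* siRNA replicate 3, the shallow library, 9 of 36 members rose and 11 fell, while 26.2% of all genes rose and 24.4% fell. These held all 14 calls made with it, plus *Cyp12e1*, *Cyp308a1* and *Cyp6v1* as rises and *Cyp4p3*, *Cyp4ac1* and *spo* as falls. Without *ovo* siRNA replicate 2, 2 of 37 rose and 2 fell (1.48% and 4.84% of all genes). With a trend in transcript GC content and length removed 4 rose and 9 fell (14.4% and 16.1% of all genes). *Cyp6a8* and *Cyp305a1* reached 10 normalized counts in the 3 controls and in a single *ovo* siRNA library, and so entered the test mainly through the controls. *Cyp301a1* and *Cyp4ac1* reached 10 in the 3 controls but not in *ovo* siRNA replicate 1 (3.40 and 7.28). Without the controls these members would not have entered either. In bulk RNA, fewer cells expressing a gene and less RNA per cell cannot be told apart.

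**Figure D2:**
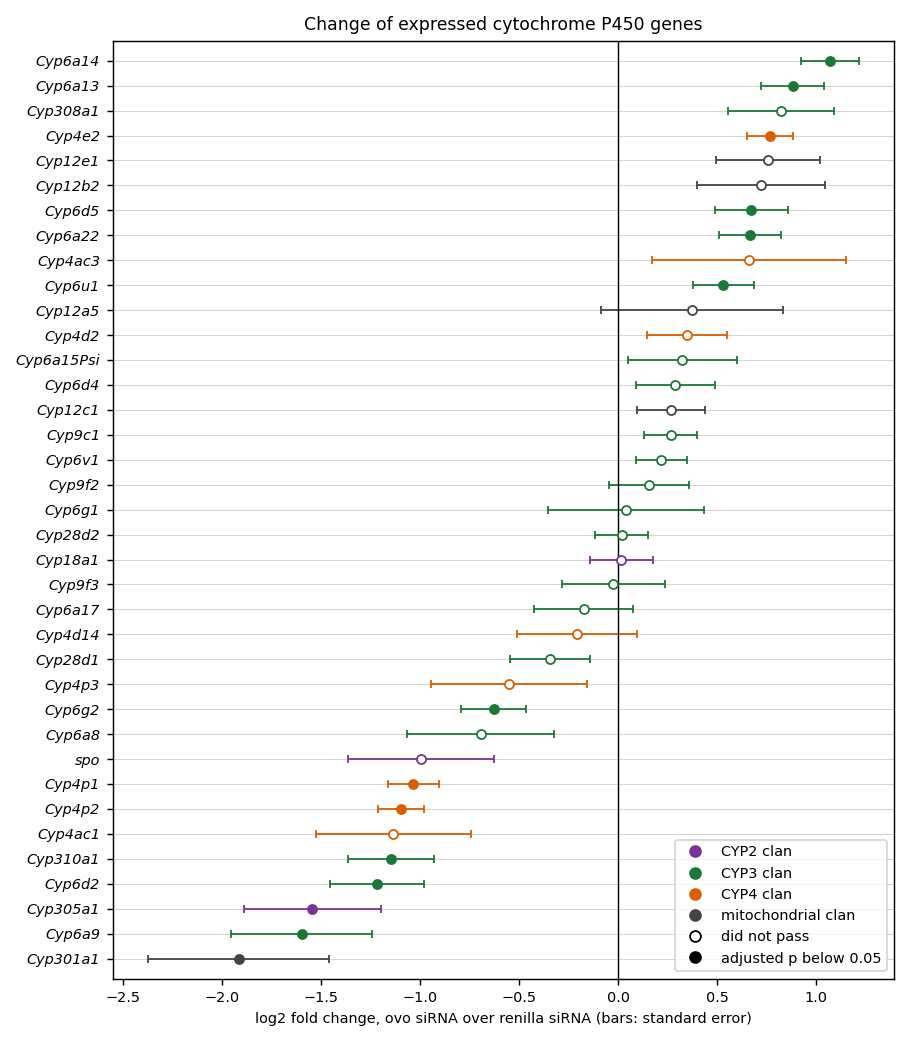
Log2 fold change (ovo siRNA over renilla siRNA) with its standard error for the 37 expressed members, colored by clan; filled points passed the test at an adjusted p below 0.05 and open points did not. Filled points lie on both sides of 0, from −1.92 for Cyp301a1 to 1.07 for Cyp6a14. The widest bars are those of Cyp4ac3, Cyp12a5 and Cyp301a1, which have few reads. Wide bars also mark Cyp4p3 and spo, whose control libraries lie far apart.

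The CYP4 clan held the most abundant member and the changes with the smallest adjusted p among the members. *Cyp4p2* (2R:9237512-9239831, plus strand) had 2549.9, 2264 and 2416 normalized counts in *ovo* siRNA replicates 1, 2 and 3 and 5329, 5274 and 4860.4 in *renilla* siRNA replicates 1, 2 and 3. The *ovo* siRNA libraries were all at less than the lowest control value, and the mean fell 2.14-fold, from 5155 ± 256.3 to 2409.8 ± 143 (log2 fold change −1.10 ± 0.12, adjusted p = 0.00205). Its neighbor *Cyp4p1* (2R:9240041-9242139, plus strand) had 876, 684 and 758 normalized counts after *ovo* siRNA and 1611, 1567 and 1550.1 after *renilla* siRNA. It fell 2.05-fold (log2 fold change −1.03 ± 0.13, adjusted p = 0.00276), again with no overlap between the groups. The third gene of this group, *Cyp4p3*, had 68.9, 51.1 and 53.7 normalized counts after *ovo* siRNA and 134, 103 and 43.8 after *renilla* siRNA, and *renilla* siRNA replicate 3, with 10 reads of the gene, was below all 3 *ovo* siRNA libraries. It did not pass (log2 fold change −0.55 ± 0.39, adjusted p = 0.334), but without that library it was lower after *ovo* siRNA (log2 fold change −1.02, adjusted p = 0.00214). No other alternative gave it a call.

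*Cyp4e2* (2R:8444560-8447164, plus strand) went the other way, with 796, 743 and 746 normalized counts after *ovo* siRNA and 455, 469 and 420.4 after *renilla* siRNA. All 3 *ovo* siRNA libraries were above all controls, a rise of 1.70-fold (log2 fold change 0.77 ± 0.12, adjusted p = 0.00513). Its neighbors *Cyp4e1* and *Cyp4ad1* had 17 and 16 reads in all 6 libraries. The calls for *Cyp4p2*, *Cyp4p1* and *Cyp4e2* held in all 16 alternatives. The other 4 expressed members of the clan had lower levels and did not pass. *Cyp4ac1* was lower in every *ovo* siRNA library (7.28, 15.3 and 10.2 normalized counts after *ovo* siRNA and 35.5, 18.1 and 21.9 after *renilla* siRNA; log2 fold change −1.14 ± 0.39, adjusted p = 0.0688), and passed without *renilla* siRNA replicate 3 (log2 fold change −1.21, adjusted p = 0.0287), also in edgeR and DESeq2 on the recovered reads (adjusted p = 0.0477 and 0.0402). Those were 3 of the 15 alternatives that tested *Cyp4ac1*, with adjusted p up to 0.199 in the others. Its neighbor *Cyp4ac3* had a log2 fold change of 0.66 ± 0.49, *Cyp4d2* of 0.35 ± 0.20 and *Cyp4d14* of −0.21 ± 0.30, and the groups overlapped for all 3 (adjusted p from 0.243 to 0.643).

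In the CYP3 clan, the 5 members that rose belong to the CYP6 family, as do *Cyp6a9*, *Cyp6d2* and *Cyp6g2*, which fell. This family, many of whose genes respond to toxins, holds most of the expressed members of the clan. *Cyp6a14* (2R:8564187-8567202, minus strand) had 663, 657 and 629 normalized counts in *ovo* siRNA replicates 1, 2 and 3 and 292, 274 and 368 in *renilla* siRNA replicates 1, 2 and 3. It rose 2.10-fold, from 311.4 ± 49.7 to 650.0 ± 18, the largest rise among the members (log2 fold change 1.07 ± 0.15, adjusted p = 0.00354), and held in all 16 alternatives. RefSeq notes a frameshift in its coding region, and 26.3% of its 50-base words occur elsewhere in the genome, so some of its reads may have been assigned with less certainty. *Cyp6a13* (2R:8570499-8572147, plus strand), on the other side of the pseudogene *Cyp6a15Psi*, had 512, 562 and 561 normalized counts after *ovo* siRNA and 283, 252 and 359 after *renilla* siRNA. It rose 1.84-fold (log2 fold change 0.88 ± 0.16, adjusted p = 0.00850), and its groups did not overlap. Without *ovo* siRNA replicate 2 its adjusted p was 0.0577. The pseudogene between them had 29.1, 24.6 and 21.0 normalized counts after *ovo* siRNA and 21.0, 16.2 and 21.9 after *renilla* siRNA, with no call (log2 fold change 0.32 ± 0.27, adjusted p = 0.415).

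*Cyp6d5* (3R:14029228-14031483, plus strand) had 332, 389 and 519 normalized counts after *ovo* siRNA and 271, 235 and 258 after *renilla* siRNA, with *ovo* siRNA replicate 3 the highest, and rose 1.59-fold (log2 fold change 0.67 ± 0.18, adjusted p = 0.0336). *Cyp6a22* (2R:14871366-14873705, plus strand) had 283, 275 and 269.8 normalized counts after *ovo* siRNA and 208, 156 and 162 after *renilla* siRNA. Its 3 *ovo* siRNA values lay close together and above all controls, a rise of 1.59-fold (log2 fold change 0.67 ± 0.16, adjusted p = 0.0202). *Cyp6u1* (2R:6971996-6975026, minus strand) had 406, 442 and 452 normalized counts after *ovo* siRNA and 296, 255 and 355 after *renilla* siRNA and rose 1.45-fold (log2 fold change 0.53 ± 0.16, adjusted p = 0.0411). The call for *Cyp6a22* was lost in 4 single-library omissions (without *renilla* siRNA replicate 2 or any *ovo* siRNA library), that for *Cyp6d5* in 4 and that for *Cyp6u1* in 5. With the GC and length trend removed, *Cyp6d5* had a log2 fold change of 0.44 (adjusted p = 0.0586) and *Cyp6u1* a log2 fold change of 0.23 (adjusted p = 0.243).

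Of the same clan, 4 members fell. *Cyp6a9* (2R:14879356-14881372, minus strand), a gene raised in some insecticide-resistant strains, had 12.6, 12.1 and 21.0 normalized counts after *ovo* siRNA and 35.5, 41.0 and 70.1 after *renilla* siRNA. The highest *ovo* siRNA value stayed below the lowest control, a fall of 3.03-fold (log2 fold change −1.60 ± 0.35, adjusted p = 0.0165). *Cyp6d2* (2R:22652573-22654530, minus strand) had 34.9, 31.6 and 50.8 normalized counts after *ovo* siRNA and 80.2, 91.6 and 101 after *renilla* siRNA and fell 2.33-fold (log2 fold change −1.22 ± 0.24, adjusted p = 0.0108). *Cyp310a1* (2L:18651058-18653010, minus strand) had 25.2, 29.3 and 32.6 normalized counts after *ovo* siRNA and 57.4, 73.5 and 65.7 after *renilla* siRNA, again without overlap, and fell 2.22-fold (log2 fold change −1.15 ± 0.22, adjusted p = 0.0102). *Cyp6g2* (2R:12188338-12190377, minus strand), which can give insecticide resistance when overexpressed, had 125, 115.2 and 100.1 normalized counts after *ovo* siRNA and 176, 158 and 193 after *renilla* siRNA. It had the smallest of the falls, 1.55-fold (log2 fold change −0.63 ± 0.16, adjusted p = 0.0286), and lost its call in 5 of the 6 single-library omissions. The calls for *Cyp6d2* and *Cyp310a1* were lost without *ovo* siRNA replicate 2 and with reads thinned to the smallest library, and that for *Cyp6a9* without *ovo* siRNA replicate 1 or 2. *Cyp6a9* was read from 16 to 43 reads per library, and 9.49% of its 50-base words occur elsewhere.

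The other expressed members of the CYP3 clan did not pass, and they include the second most abundant member. *Cyp28d2* (2L:5207267-5209345, plus strand) had 1686, 1567 and 1349 normalized counts in *ovo* siRNA replicates 1, 2 and 3 and 1573, 1596 and 1366 in *renilla* siRNA replicates 1, 2 and 3. The groups overlapped almost fully, with means of 1534 and 1512 (log2 fold change 0.02 ± 0.13, adjusted p = 0.938). *Cyp6v1* (X:20657122-20661425, plus strand) had 611, 599.6 and 559.8 normalized counts after *ovo* siRNA and 507, 457 and 560.5 after *renilla* siRNA, and *renilla* siRNA replicate 3 lay among the *ovo* siRNA values (log2 fold change 0.22 ± 0.13, adjusted p = 0.244). *Cyp9c1* was higher in every *ovo* siRNA library, by a log2 fold change of 0.26 ± 0.14 (adjusted p = 0.187). *Cyp308a1* was also higher in all 3 (35.9, 34.8 and 29.01 normalized counts after *ovo* siRNA and 22.8, 15.3 and 17.5 after *renilla* siRNA; log2 fold change 0.82 ± 0.27, adjusted p = 0.0571), and passed without *renilla* siRNA replicate 3 (adjusted p = 0.0334) and in edgeR (adjusted p = 0.0497). Those were 2 of the 15 alternatives that tested *Cyp308a1*, with adjusted p up to 0.329 in the others. *Cyp6d4* was higher in all 3 by 0.29 ± 0.20 on the log2 scale and *Cyp6a8* was lower in all 3 (log2 fold change −0.70 ± 0.37), neither past the threshold (adjusted p = 0.322 and 0.204). *Cyp28d1* (−0.35 ± 0.20), *Cyp6a17* (−0.17 ± 0.25), *Cyp6g1* (0.04 ± 0.39), *Cyp9f2* (0.16 ± 0.20) and *Cyp9f3* (−0.02 ± 0.26) had overlapping groups, with log2 fold changes as given and adjusted p from 0.244 to 0.958. Removing the GC and length trend gave *Cyp28d1* an adjusted p of 0.0461, past the threshold, and no other alternative gave it a call. *Cyp6a17* has been linked to temperature preference. The coding sequences of *Cyp9f2* and *Cyp9f3* are 97.4% identical and 36.0% and 29.7% of their 50-base words occur elsewhere, so their counts cannot be told apart with certainty.

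In the ecdysteroid pathway, cholesterol is turned step by step into ecdysone and then into the active molting hormone. The genes *spo* and *spok* act in the early, uncharacterized steps, *phm*, *dib* and *sad* encode the hydroxylases that follow, *shd* makes the active hormone, and *Cyp18a1* inactivates it. Only *spo* and *Cyp18a1* were expressed in these cells. *spo* (3L:5590083-5592571, minus strand) had 48.5, 45.1 and 31.2 normalized counts in *ovo* siRNA replicates 1, 2 and 3 and 128, 90.7 and 48.2 in *renilla* siRNA replicates 1, 2 and 3. All *ovo* siRNA values but the highest, in replicate 1, lay below the lowest control, *renilla* siRNA replicate 3, which had 11 reads of the gene. The mean was 41.6 ± 9.17 against 89.1 ± 40.2, and the difference did not pass (log2 fold change −0.997 ± 0.37, adjusted p = 0.0842). Without *renilla* siRNA replicate 3 it passed (log2 fold change −1.38, adjusted p = 0.00108), as it did in edgeR and DESeq2 on the recovered reads (adjusted p = 0.0223 and 0.00529). In all, *spo* passed in 4 of the 15 alternatives that tested it, the replicate block included, with adjusted p up to 0.246 in the others. *Cyp18a1* (X:18688538-18693042, minus strand) had 564, 548 and 454 normalized counts in *ovo* siRNA replicates 1, 2 and 3 and 443, 514 and 596 in *renilla* siRNA replicates 1, 2 and 3, with overlapping groups (log2 fold change 0.02 ± 0.16, adjusted p = 0.952).

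The remaining ecdysteroid P450 genes were near or at 0. *phm* had 2.43, 2.79 and 0.725 normalized counts after *ovo* siRNA and 3.64, 0.955 and 0 after *renilla* siRNA, or 17 reads in all. *sad* had 1.46, 2.79 and 2.18 normalized counts after *ovo* siRNA and 4.56, 5.73 and 0 after *renilla* siRNA, or 23 reads. *shd* had 1.94, 0 and 0 normalized counts after *ovo* siRNA and 2.73, 0 and 4.38 after *renilla* siRNA, or 8 reads, the value of *renilla* siRNA replicate 3 being a single read. *spok* had 0.485, 0 and 0 normalized counts after *ovo* siRNA and 1.82, 1.91 and 0 after *renilla* siRNA, or 5 reads, and *dib* had no read in any library. A count of 0 in a library still allows a level of up to 1.39 to 13.1 normalized counts, depending on its depth, so *dib* cannot be called absent. The 6 libraries together bound its level more tightly than the shallowest one does. The third expressed member of the CYP2 clan, *Cyp305a1* (3L:19810403-19813339, minus strand), had 6.31, 6.97 and 10.2 normalized counts after *ovo* siRNA and 20.04, 32.5 and 21.9 after *renilla* siRNA. Every *ovo* siRNA value was below every control, a fall of 2.92-fold (log2 fold change −1.54 ± 0.35, adjusted p = 0.0173). It rested on 5 to 34 reads per library and lost its call in 3 single-library omissions (without *ovo* siRNA replicate 1 or 2 or *renilla* siRNA replicate 2) and with thinned reads.

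Of the mitochondrial clan, whose enzymes take electrons from ferredoxin, *Cyp301a1* fell. This gene, known for its part in making the cuticle (2R:12566185-12569061, plus strand), had 3.40, 10.2 and 11.6 normalized counts after *ovo* siRNA and 39.2, 29.6 and 26.3 after *renilla* siRNA. The groups did not overlap and the fall of 3.78-fold was the largest among the members (log2 fold change −1.92 ± 0.46, adjusted p = 0.0208), from 6 to 43 reads per library. Its call was lost without *ovo* siRNA replicate 2 and without *renilla* siRNA replicate 1 or 2. It reached the limit of 10 normalized counts in every control but not in *ovo* siRNA replicate 1. The 4 expressed members of the CYP12 family all had positive log2 fold changes, and none passed. They were 0.76 ± 0.26 for *Cyp12e1*, 0.72 ± 0.32 for *Cyp12b2*, 0.27 ± 0.17 for *Cyp12c1* and 0.37 ± 0.46 for *Cyp12a5* (adjusted p = 0.0703, 0.141, 0.284 and 0.582). For the first 3 of these every *ovo* siRNA library was above every control, as it was for 23.6% of all genes tested. No test was run on the 4 as a set. *Cyp12e1* had 146, 97.1 and 120.4 normalized counts after *ovo* siRNA and 83.8, 49.6 and 83.2 after *renilla* siRNA, and passed without *renilla* siRNA replicate 3 (log2 fold change 0.88, adjusted p = 0.0119), also in DESeq2 on the recovered reads (adjusted p = 0.0296). In all, it passed in 3 of the 16 alternatives, the replicate block included, with adjusted p up to 0.204 in the others.

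Many P450 genes lie side by side in the genome, as copies of one ancestral gene, so neighbors were read together. With members joined into a cluster where the gap between them was at most 10 kb, 48 members formed 17 clusters, and 23 of the 37 expressed members lay in 11 of these. In 6 clusters no member was expressed. Expressed members and members below the limit lay side by side: of 9 members at 2R:14871366-14903095, 4 were expressed (*Cyp6a22*, *Cyp6a17*, *Cyp6a9* and *Cyp6a8*), and the 5 others had 3 to 63 reads each. This cluster had a call in each direction, *Cyp6a22* having risen and *Cyp6a9* fallen, while *Cyp6a17* and *Cyp6a8* did not pass. Only the clusters of *Cyp4p2* and of *Cyp6a14* also held more than a single called member, and within each of them the calls went the same way. In the cluster of *Cyp4p2*, *Cyp4p1* and *Cyp4p3* (2R:9237512-9244410) all 3 log2 fold changes were negative, and in that of *Cyp6a14*, *Cyp6a15Psi* and *Cyp6a13* (2R:8564187-8572147) all 3 were positive. Of the 8 clusters with 2 or more expressed members, all the others held both signs. An example is *Cyp4ac1* (−1.14 ± 0.39) and *Cyp4ac3* (0.66 ± 0.49), neither of which passed. For *Cyp28d2* (0.02 ± 0.13), *Cyp6g1* (0.04 ± 0.39) and *Cyp9f3* (−0.02 ± 0.26) the change was smaller than its standard error, so their signs are not settled. The coding sequences of *Cyp4p2* and *Cyp4p1* were 70.8% identical and those of *Cyp6a14* and *Cyp6a13* 66.1%, and no 50-base word of the *Cyp4p* genes occurs elsewhere in the genome. At 2L:5207267-5212445 *Cyp28d2* had 12420 reads over the 6 libraries and *Cyp28d1*, 70.2% identical in coding sequence, had 572. *Cyp6g1* and *Cyp6g2* overlap at their ends on opposite strands, as do *Cyp6a9* and *Cyp6a19*, and counting used the strand. *Cyp18a1* lies beside *phm* on the opposite strand, and the former had 4127 reads in all and the latter 17.

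**Figure D3:**
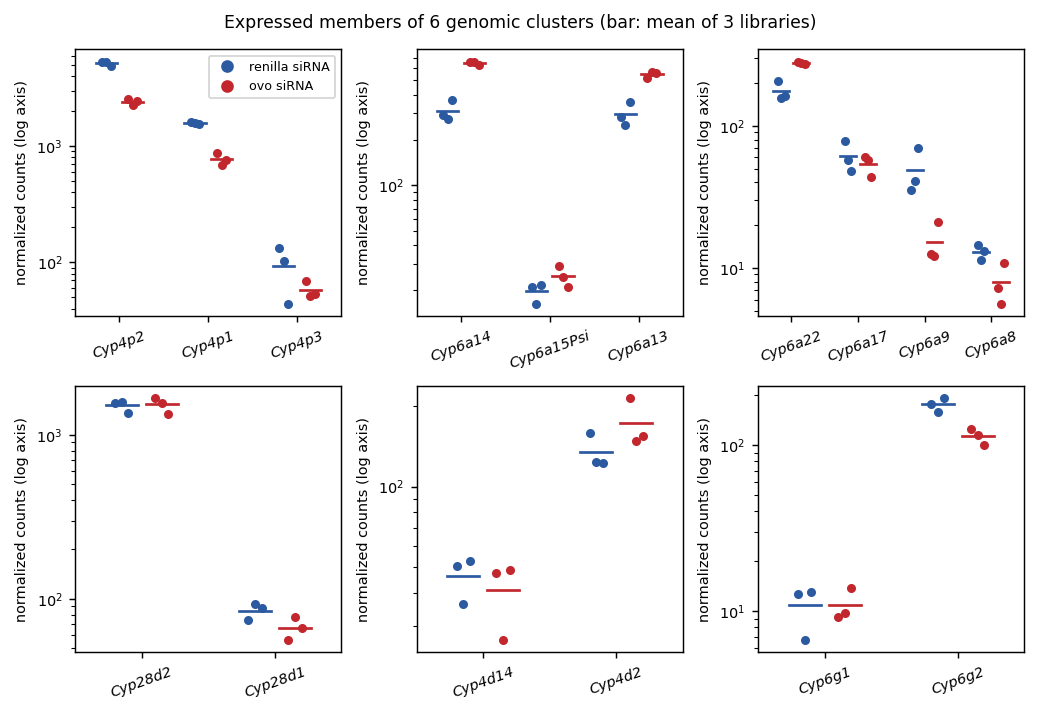
Normalized counts (log axis) of the expressed members of 6 genomic clusters, in their order along the chromosome, with blue points for the 3 renilla siRNA libraries, red points for the 3 ovo siRNA libraries and a bar at each mean. Red points lie below blue ones for Cyp4p2 and Cyp4p1 and above them for Cyp6a14 and Cyp6a13, and in the cluster of Cyp6a22, Cyp6a17, Cyp6a9 and Cyp6a8 they lie above for the first and below for Cyp6a9.

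Summed over all 91 members, the libraries had 10333 to 10948 normalized counts after *ovo* siRNA and 12585 to 13213 after *renilla* siRNA, with means of 10561 ± 337 and 12885 ± 315.3 (SD, n = 3). Scaled to the total count of each library (CPM) in place of its size factor, the sums overlapped, with 1005 to 1123 CPM after *ovo* siRNA and 1041 to 1248 CPM after *renilla* siRNA (means of 1054 ± 61.2 and 1159 ± 106). *Cyp4p2* alone made up 40.0 ± 1.23% of the members' sum in the controls and 22.8 ± 0.779% after *ovo* siRNA. Without the 3 *Cyp4p* genes the sum was 7321 ± 139 after *ovo* siRNA and 6061 ± 128 in the controls, so the order of the groups turned. These 3 genes include the most abundant members that fell, so leaving them out by itself moves the comparison that way. Long genes weigh more in such sums, and no test was run on them, since the members were chosen as a family.

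P450 enzymes depend on partner proteins, on heme and on regulators, which were followed as lists of genes, and their calls stand beside 11.8% of all genes that rose and 14.1% that fell. Of 5 expressed electron partners, *dare*, the reductase that feeds electrons to mitochondrial P450s, rose 1.80-fold (257, 282 and 288 normalized counts after *ovo* siRNA and 177, 135 and 149 after *renilla* siRNA; log2 fold change 0.85 ± 0.16, adjusted p = 0.00886), and lost this call without *ovo* siRNA replicate 2 alone among the alternatives. The main microsomal partner, *Cpr*, had 505, 507 and 495 normalized counts after *ovo* siRNA and 473, 496 and 372 after *renilla* siRNA, with no call (log2 fold change 0.18 ± 0.14, adjusted p = 0.393), as for *Cyt-b5*, *Fdx1* and *Fdx2*. Of 8 genes of heme synthesis and breakdown, 2 rose by the limma test. The gene for porphobilinogen deaminase, an early enzyme of the pathway, had 1325, 1463 and 1379 normalized counts after *ovo* siRNA and 843, 754 and 814 after *renilla* siRNA, all *ovo* siRNA libraries being higher (log2 fold change 0.79 ± 0.11, adjusted p = 0.00443), and this held in all 16 alternatives. *Ppox*, the enzyme before the insertion of iron, had 244, 336 and 310.4 normalized counts after *ovo* siRNA and 200.4, 148 and 136 after *renilla* siRNA (log2 fold change 0.88 ± 0.20, adjusted p = 0.0183), and lost its call in 5 of the 16. *Alas*, the first enzyme of the pathway, did not pass (log2 fold change 0.15 ± 0.19, adjusted p = 0.601). Over the 5 electron partners the median on the log2 scale was 0.20 and over the 8 heme genes 0.36, against 0.04 over all genes, and no test was run on these medians.

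Among 5 expressed genes of ecdysteroid synthesis and transport other than P450s, *Start1*, a sterol carrier, rose 1.48-fold (429, 417 and 392 normalized counts after *ovo* siRNA and 304.3, 326 and 219 after *renilla* siRNA; log2 fold change 0.56 ± 0.17, adjusted p = 0.0489), with the call lost in 7 of the 16 alternatives. *nvd*, which acts on cholesterol at the start of the pathway, had a log2 fold change of −0.43 ± 0.25 (adjusted p = 0.237), and the list had a median of −0.25. Of 7 expressed regulators, 1 rose and 2 fell. *cnc*, the fly Nrf2 homolog that acts on detoxification genes, fell from 6513 ± 933 to 4271 ± 279 (log2 fold change −0.60 ± 0.14, adjusted p = 0.0219). The paralogous juvenile hormone receptors moved in opposite directions: *Met* fell from 923 ± 129.97 to 651 ± 34.1 (log2 fold change −0.49 ± 0.14, adjusted p = 0.0350) and *gce* rose from 98.8 ± 9.75 to 201 ± 56.5 (log2 fold change 0.98 ± 0.23, adjusted p = 0.0200). With the GC and length trend removed, *cnc* had a log2 fold change of −0.22 (adjusted p = 0.439) and *Met* a log2 fold change of 0.08 (adjusted p = 0.712), a change of sign. In the 6 single-library omissions the call held in 2 for *cnc* (without *renilla* siRNA replicate 1 or 3), in 1 for *Met* (without *renilla* siRNA replicate 3) and in 3 for *gce* (without *renilla* siRNA replicate 1 or 3, and without the third *ovo* siRNA library). That for *gce* was also lost with reads thinned to the smallest library.

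CNGTTA is a form of the Ovo motif that the study describes, N being any base, and it was looked for on both strands from 250 bases before to 50 after the annotated start of each gene. It was present in 17 of 36 expressed members with such a window (47.2%), compared with 41.9% of 7579 expressed protein-coding genes, and in 30 of 89 members of the family (33.7%), compared with 38.8% of 13908 protein-coding genes. By call, 4 of the 6 members that rose had it (*Cyp6a13*, *Cyp4e2*, *Cyp6a22* and *Cyp6u1*), 3 of the 8 that fell (*Cyp4p1*, *Cyp6a9* and *Cyp301a1*) and 10 of the 22 others. A match is a run of letters and does not show binding. *spo* had 2 matches, at −199 and −17 from its start, and its windows of 30 bases are shown because they stand in the one ecdysteroid synthesis P450 gene that was expressed. They are read from the RefSeq dm6 genome on the minus strand, 5′ to 3′, with the motif in capitals.
spo, −199: gttttttctggtCAGTTAaatataaaaaaa
spo, −17: cagtatatgtttCAGTTActtgggactttc
The first lies at chr3L:5592753-5592782 and the second at chr3L:5592571-5592600. The windows of *Cyp6d5*, *Cyp305a1*, *Cyp310a1*, *Cyp18a1* and *Cyp28d2* had no match.

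Across the 16 alternatives, the 14 called members kept their direction wherever they were tested. The calls for *Cyp6a14*, *Cyp4e2*, *Cyp4p2* and *Cyp4p1* held in all of them, and those for the other 10 were lost in at least 1.

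**Figure D4:**
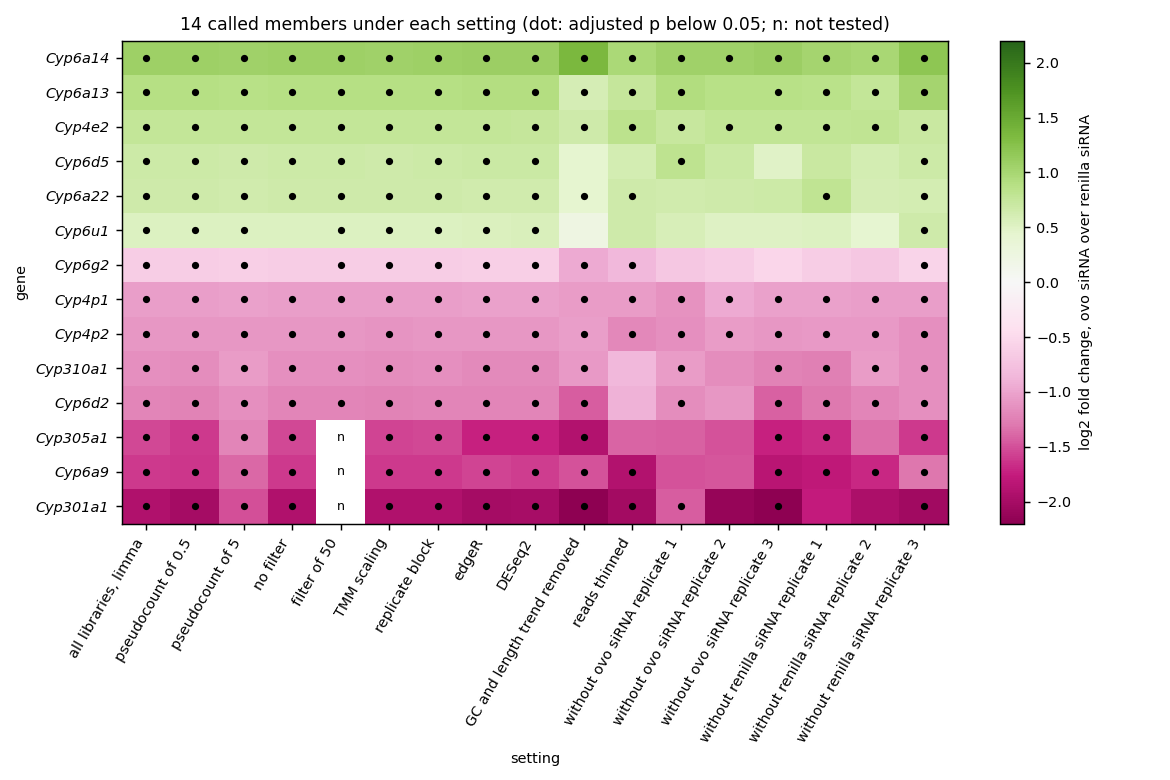
Log2 fold change (color; ovo siRNA over renilla siRNA) of the 14 called members under the fit to all libraries and each of the 16 alternatives, with a dot where the adjusted p was below 0.05 and n where the gene was not tested. The rows of Cyp6a14, Cyp4e2, Cyp4p1 and Cyp4p2 have a dot in every column, and the column without ovo siRNA replicate 2 has a dot in these 4 rows only.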

How the data were processed

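Per the labels, strand-specific libraries were made from poly(A) RNA (input 500 ng total RNA). Tools given in the submitters' processing notes are cutadapt 1.18, STAR 2.7.3a, featureCounts of Subread 1.5.3 and DESeq2 1.30.1, on the dm6 (BDGP6) genome. The authors deposited a signal table of gene counts divided by 1 DESeq2 size factor per library. Multiplying back gave whole reads for 100% of values (tolerance 0.01, largest deviation 2.76e-05), and edgeR 4.0.16 and DESeq2 1.42.0 were run on these as alternatives. The authors also deposited their own comparison table (mean level, log2 fold change, standard error, Wald statistic and p values), which was not used here.

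Genes that reached 10 normalized counts in 3 or more libraries were kept (7893). limma 3.58.1 with a mean-dependent prior was fitted to log2 (normalized count + 1) of 3 *ovo* siRNA and 3 *renilla* siRNA libraries, with no block. Tests were two-sided, with Benjamini-Hochberg adjustment over the genes kept. Fold changes are on the log2 (normalized count + 1) scale, which understates changes of low genes. Levels are means ± SD, n = 3. Floors of 3 reads cover counting error only, as reads had no molecular identifiers. The family members and the lists of partners were chosen with earlier results of these data known. Every expressed member is named, and values in each library are given for members past the threshold, the 5 with the highest mean and the ecdysteroid genes. From the partner lists, members past the threshold are named.

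Positions come from Ensembl BDGP6.54 (release 115). The symbols of all 91 members matched, 99.87% of the 13973 coding genes shared with RefSeq Release 6 have the same coordinates there, and sequences were read from that RefSeq genome of the same dm6 build. Proteins were translated from the coding exons of 1 transcript per gene. The alternatives were a pseudocount of 0.5 or of 5, all genes without a filter, a minimum of 50 normalized counts, TMM scaling, the replicate number as a block, edgeR, DESeq2, removal of spline trends (5 degrees of freedom each) in the GC content, length and 3′ UTR length of transcripts, reads thinned to the smallest library, and leaving out each library. Applying them to the partner genes was chosen after seeing the data. On data simulated for *ovo* siRNA over *renilla* siRNA (7893 genes, 200 changed) the procedure recovered 8 of 67 genes changed 1.5-fold, 46 of 67 changed 2-fold and 66 of 66 changed 4-fold, with 4 false calls.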

Additional observations from a re-analysis of the deposited data

How the results depend on the processing

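The 6 rises and 8 falls of the members became 2 to 9 rises and 2 to 11 falls when single libraries were left out, the fewest without *ovo* siRNA replicate 2 (1.48% and 4.84% of all genes) and the most without *renilla* siRNA replicate 3 (26.2% and 24.4%). A filter of 50 normalized counts gave 6 rises and 5 falls among 24 members tested (13.1% and 12.7% of all genes). *Cyp305a1*, *Cyp6a9* and *Cyp301a1* did not reach that filter. Reads thinned to the smallest library gave 4 rises and 5 falls (7.12% and 10.4% of all genes). With the GC and length trend removed there were 4 rises and 9 falls (14.4% and 16.1% of all genes). On the recovered reads edgeR gave 7 rises and 10 falls (13.3% and 15.8% of all genes). DESeq2 gave as many (15.2% and 18.1% of all genes). No call of a member changed sign. The 5 rises and 2 falls among the 25 expressed partner and regulator genes became 1 to 9 rises and 0 to 5 falls without single libraries, and 2 rises with thinned reads. *Met* changed sign, to a log2 fold change of 0.0823, with the trend removed. With the replicate number as a replicate block, 7 members rose and 9 fell, which added *Cyp12e1* (adjusted p = 0.0119) and *spo* (adjusted p = 0.00663) to the 14 calls made without it, while 18.7% and 19.0% of all genes rose and fell, and 8 partner and regulator genes rose. The numbers were not taken to pair the libraries, since correlations of the deviations from the group means did not follow them throughout. Same-numbered libraries correlated at 0.44, −0.14 and 0.46 for replicates 1, 2 and 3. Between unlike numbers the values ran from −0.51 (*ovo* siRNA replicate 1 with *renilla* siRNA replicate 3) to 0.43 (*ovo* siRNA replicate 1 with *renilla* siRNA replicate 2). The causes of the differences between settings were not tested. Of *renilla* siRNA replicate 3, 1 read is worth 4.38 normalized counts, which limits members with few reads.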
